A study of Rattus norvegicus with 21 samples.

Results

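Galanin, vasoactive intestinal peptide (VIP) and pituitary adenylate cyclase-activating polypeptide (PACAP) were followed, together with their receptors, in anterior pituitary glands of male rats from inbred strains, namely ACI, the Copenhagen strain (COP) and the Brown Norway strain (BN). The 8 genes were Gal, Vip and Adcyap1, which encode the peptides, and Galr1, Galr2, Vipr1, Vipr2 and Adcyap1r1, which encode the receptors. They are 8 of 14217 genes that the platform annotation names by a single symbol, were found by that symbol, and were read by 14 of the 31042 probe sets of the array, of which 6 passed a filter on low signal. Control rats of each strain carried an empty Silastic implant, and treated rats carried an implant with 5 mg of diethylstilbestrol (DES), a synthetic estrogen, from 9 weeks of age until death at 21 weeks. All rats, controls included, received bromodeoxyuridine at 50 mg/kg 4 hours before death. ACI and BN rats came from 1 supplier and COP rats from another, so strain and supplier cannot be told apart for COP. Each strain had 3 control and 4 DES arrays, each taken as 1 rat, although the notes on single samples name fewer independent replicates than arrays, and if so the p-values measure a spread that is partly technical.

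Galanin is a neuropeptide that lactotrophs, the prolactin cells of the pituitary, make under estrogen, and it acts on them through galanin receptors, which couple to inhibitory G proteins or, for the receptor encoded by Galr2, mainly to phospholipase C. VIP and PACAP belong to the secretin family. Both bind the VPAC receptors encoded by Vipr1 and Vipr2, whereas the PAC1 receptor encoded by Adcyap1r1 prefers PACAP, and these receptors raise cyclic AMP. VIP is a known stimulator of prolactin release and is made in the pituitary as well as in the hypothalamus. PACAP from the hypothalamus acts on several pituitary cell types, gonadotrophs and folliculostellate cells among them.

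Because Gal and Vip were the members that rose, the 250 bases before the start of each gene are shown from RefSeq on the rat build GRCr8, 5′ to 3′ on the gene's own strand. Gal lies on the minus strand of chromosome 1 at 210079709 to 210084572, and the Gal window is chr1:210084573-210084822. Vip lies on the plus strand of chromosome 1 at 44470232 to 44478561. The Vip window, chr1:44470230-44470479, precedes the start that the promoter table uses and lies almost wholly inside this annotated extent, since other transcripts start further upstream. Capitals mark GGTCA, the arm shared by estrogen response elements, and TGACG, the start of the cyclic AMP response element.
Gal: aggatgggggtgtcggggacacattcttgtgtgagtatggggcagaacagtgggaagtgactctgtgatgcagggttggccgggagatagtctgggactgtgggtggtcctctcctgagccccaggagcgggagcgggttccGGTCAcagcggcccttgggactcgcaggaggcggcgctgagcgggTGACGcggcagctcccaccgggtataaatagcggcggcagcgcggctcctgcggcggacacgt
Vip: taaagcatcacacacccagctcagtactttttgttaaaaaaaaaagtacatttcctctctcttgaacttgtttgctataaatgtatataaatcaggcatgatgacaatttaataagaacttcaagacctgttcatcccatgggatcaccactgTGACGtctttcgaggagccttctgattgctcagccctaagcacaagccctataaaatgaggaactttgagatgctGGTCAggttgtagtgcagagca
In Gal, GGTCA lay 108 to 104 bases and TGACG 63 to 59 bases before the start. In Vip the order was turned, with TGACG at 97 to 93 bases and GGTCA at 22 to 18 bases. Searched on both strands of 33469 promoter windows of the same length, GGTCA was found in 35.4% and TGACG in 18.2%, so each motif by itself is common. Of the other 6 members, Galr2 held 1 GGTCA, Vipr1 held 1 TGACG and the other 4 held neither. A complete palindromic estrogen element (GGTCA, any 3 bases, then TGACC) was in 0.0239% of windows, a complete cyclic AMP element (TGACG followed by TCA) was in 1.59%, and neither was found in any window of the 8 members. These are letter matches in a short window and not measured sites.

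The values are probe set signals on a linear scale, and they compare arrays for 1 probe set, not probe sets with each other. Folds and log2 differences are on log2(signal + 16), which understates the change of dim probe sets, and a change was called where limma's adjusted p was under 0.05. The 40th percentile of an array lay between 67.0 and 90.6, and a group mean under 67.0 is described as near the floor. The median signal of an array lay between 118.8 and 151.4, and on the log2 scale DES moved the median of all 21866 probe sets tested by -0.13 for ACI, -0.09 for COP and -0.06 for BN rats. The 4 BN DES arrays were less alike than the other groups, with median correlations inside the group of 0.938 to 0.944 against 0.959 to 0.977 elsewhere. The spike-in control cre averaged 19864 on arrays numbered 1 and 2 and 27355 on arrays numbered 3 and 4. By treatment, its means were 19391, 17280 and 16819 in ACI, COP and BN controls, against 26127, 26900 and 27997 with DES. Number and treatment are partly mixed in these means, since control groups have no number 4. Within each strain, however, every DES array numbered 1, 2 or 3 read higher for cre than the control array of that number. For number 3 the values were 26466.8 in control and 27443.8 with DES for ACI, and 17898.1 and 43984.3 for BN. The cause was not tested. Estrogen exposure was visible in Greb1, an estrogen-induced gene, whose mean signal was 41.6 ± 33.0 (SD, n = 3) in ACI controls and 2943 ± 71.9 (n = 4) with DES. The COP means were 40.9 ± 9.97 and 2577 ± 383, and the BN means 40.3 ± 8.93 and 1944 ± 447.

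DES raised Gal more than 100-fold in every strain, and the control and DES arrays were far apart. In ACI the Gal signal (probe set 1387088_at) was 220.3, 173.0 and 275.3 on the control arrays and 36473.3, 42248.9, 44145.7 and 44858.8 on the DES arrays. COP controls read 518.1, 496.9 and 304.3, and COP DES arrays read 39696.0, 43226.8, 50452.6 and 48617.8. BN controls read 173.2, 167.5 and 168.7, and BN DES arrays read 18279.3, 18546.6, 23385.4 and 25618.3. No DES array overlapped a control array, and the BN DES arrays all lay below the DES arrays of the other strains. ACI rats had a log2 change of Gal of 7.47 (SE 0.16, 178-fold, adjusted p = 4.574e-19). It was 6.67 (102-fold, adjusted p = 3.883e-18) for COP and 6.84 (114-fold, adjusted p = 9.206e-18) for BN rats. By size of change, Gal held rank 2 of the 21866 probe sets for ACI and BN and rank 3 for COP. The two-sided exact permutation test over arrays gave p = 0.0286 in each strain, the smallest that 3 against 4 arrays allow. Saturation of the brightest signals was not assessed here.

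Vip rose with DES in every strain as well, but by very different amounts. The ACI signal of Vip (probe set 1377146_at) was 53.7, 42.1 and 110.1 in controls and 2296.2, 1055.1, 1403.6 and 1978.8 with DES. In COP it was 77.8, 40.3 and 59.9 in controls and 11807.2, 12029.4, 10561.9 and 14205.1 with DES. In BN it was 87.0, 101.0 and 94.9 in controls and 443.7, 384.4, 516.0 and 598.3 with DES. Every DES array lay above every control array of its strain, and the 3 sets of DES arrays did not overlap each other, with COP highest, ACI between and BN lowest. The log2 change of Vip was greatest for COP, at 7.36 (adjusted p = 1.004e-15), against 4.35 for ACI (SE 0.25, adjusted p = 4.267e-12) and 2.17 for BN (4.50-fold, adjusted p = 6.804e-07), each with an exact permutation p of 0.0286. Since control signals of ACI and COP were at or near the floor, the ratio of mean signals is a bound when each control array is raised to its 40th percentile, at least 19.1-fold in ACI and at least 155-fold in COP. In COP none of the 21866 probe sets tested had a larger log2 change, whereas Vip ranked 69 in ACI and 282 in BN. Gal and Vip were each read by 1 probe set, so a strain's sequence under the probes and its amount of transcript cannot be told apart in a comparison of strains. In whole glands, a difference in the number of cells that make a transcript and a difference in transcript per cell cannot be told apart either.

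**Figure D1:**
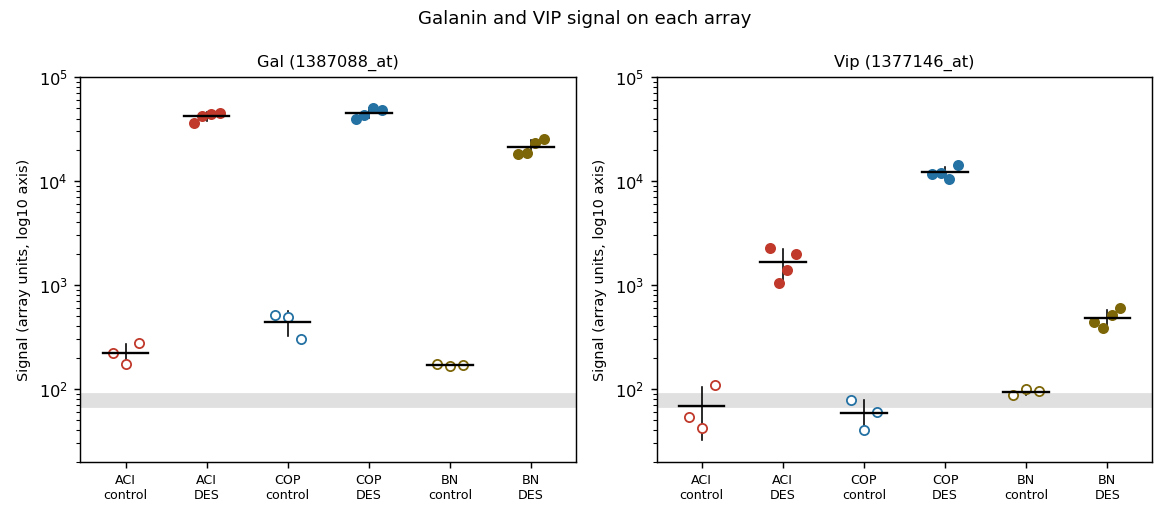
Signal of Gal and Vip on each of the 21 arrays (log10 axis, array units) by strain and treatment. Open points are control arrays, filled points DES arrays, horizontal lines group means, vertical lines 1 SD, and the gray band the range of the 40th percentile of the arrays. Gal reaches between 18279.3 and 50452.6 on all DES arrays, whereas Vip separates into 3 levels with COP highest and BN lowest.

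The transcript of PACAP stayed near the floor. The 2 probe sets of Adcyap1 read between 0.6 and 30.6 on all 21 arrays, under the 40th percentile on each, and neither was called in any DES comparison. The same held for the galanin receptors. Galr1 read between 1.3 and 21.6, and the 2 probe sets of Galr2 read between 4.2 and 42.6 and between 2.7 and 52.7. For the galanin receptors no change could therefore be measured, and a change below this floor would not have been detectable.

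Among the receptors, Adcyap1r1 (PAC1) fell. Probe set 1374681_at read 785.3, 891.8 and 606.4 in ACI controls and 168.6, 112.4, 92.0 and 27.3 in ACI DES arrays. In COP it read 738.2, 640.5 and 619.7 in controls and 201.0, 325.3, 121.3 and 178.0 with DES. In BN it read 954.5, 685.2 and 867.2 in controls and 528.5, 512.9, 404.1 and 458.7 with DES. Controls lay above DES arrays in every strain without overlap, with the widest gap in ACI and the narrowest in BN. The change was -2.90 on the log2 scale in ACI (SE 0.33, 7.48-fold lower, adjusted p = 1.757e-07) and -1.69 in COP (3.23-fold lower, adjusted p = 2.443e-04). In BN it was -0.79 (95% interval -1.47 to -0.10) and was not called (adjusted p = 0.0714), although the exact permutation p was 0.0286 there as in the other strains. The gene lies on chromosome 4 at 85924171 to 85972973 on GRCr8.

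The other 3 probe sets annotated to Adcyap1r1 did not show this fall. Probe set 1387302_at read 46.3, 35.7 and 10.6 in ACI controls and 27.7, 46.5, 3.8 and 7.6 with DES, a change of -0.39 (95% interval -1.50 to 0.72). Probe sets 1368729_a_at and 1368730_a_at had group means near the floor in all 6 groups, with single signals between 2.0 and 97.2. All 3 were dim in ACI and COP controls already, which left little room for a fall there. In BN, 1387302_at read 100.3, 98.5 and 26.5 in controls and 132.1, 74.5, 117.7 and 78.4 with DES. That change of 0.46 was not called (adjusted p = 0.545), and no fall was seen although the controls left some room. The fall of Adcyap1r1 rests on 1 probe set.

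Vipr2, the VPAC2 receptor, was dim throughout. Its probe set 1387177_at read 151.6, 113.7 and 94.5 in ACI controls against 15.7, 15.0, 17.7 and 12.5 with DES. In COP it read 37.9, 29.1 and 164.6 in controls against 17.4, 24.6, 33.1 and 21.8 with DES. In BN it read 96.5, 24.0 and 15.2 in controls against 17.5, 14.5, 12.4 and 20.9 with DES. The groups were apart in ACI but overlapped in COP and in BN, where 1 control array each stood well above the other two. Vipr2 changed by -2.10 on the log2 scale in ACI (SE 0.44, adjusted p = 4.343e-04, exact permutation p = 0.0286), at least 1.71-fold when the DES arrays are raised to their 40th percentile. In COP the change was -0.93 (adjusted p = 0.0966), and in BN it was -0.69 (adjusted p = 0.249). Without control array 2 of COP the change there was -1.31 and was called (adjusted p = 0.0397). With arrays numbered 3 and 4 alone, which leaves 1 control array that is assumed to vary like the other groups, the ACI difference of Vipr2 was -1.83 and was not called (adjusted p = 0.104).

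Vipr1, the VPAC1 receptor, showed no called change. Probe set 1383695_at read 36.1 to 113.0 over the 21 arrays and exceeded the 40th percentile on 4 of them, all with DES. ACI, COP and BN rats had changes of 0.20, 0.46 and 0.23, with the highest 95% interval end at 1.13. The second probe set, 1387561_at, stayed between 1.6 and 14.8.

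**Figure D2:**
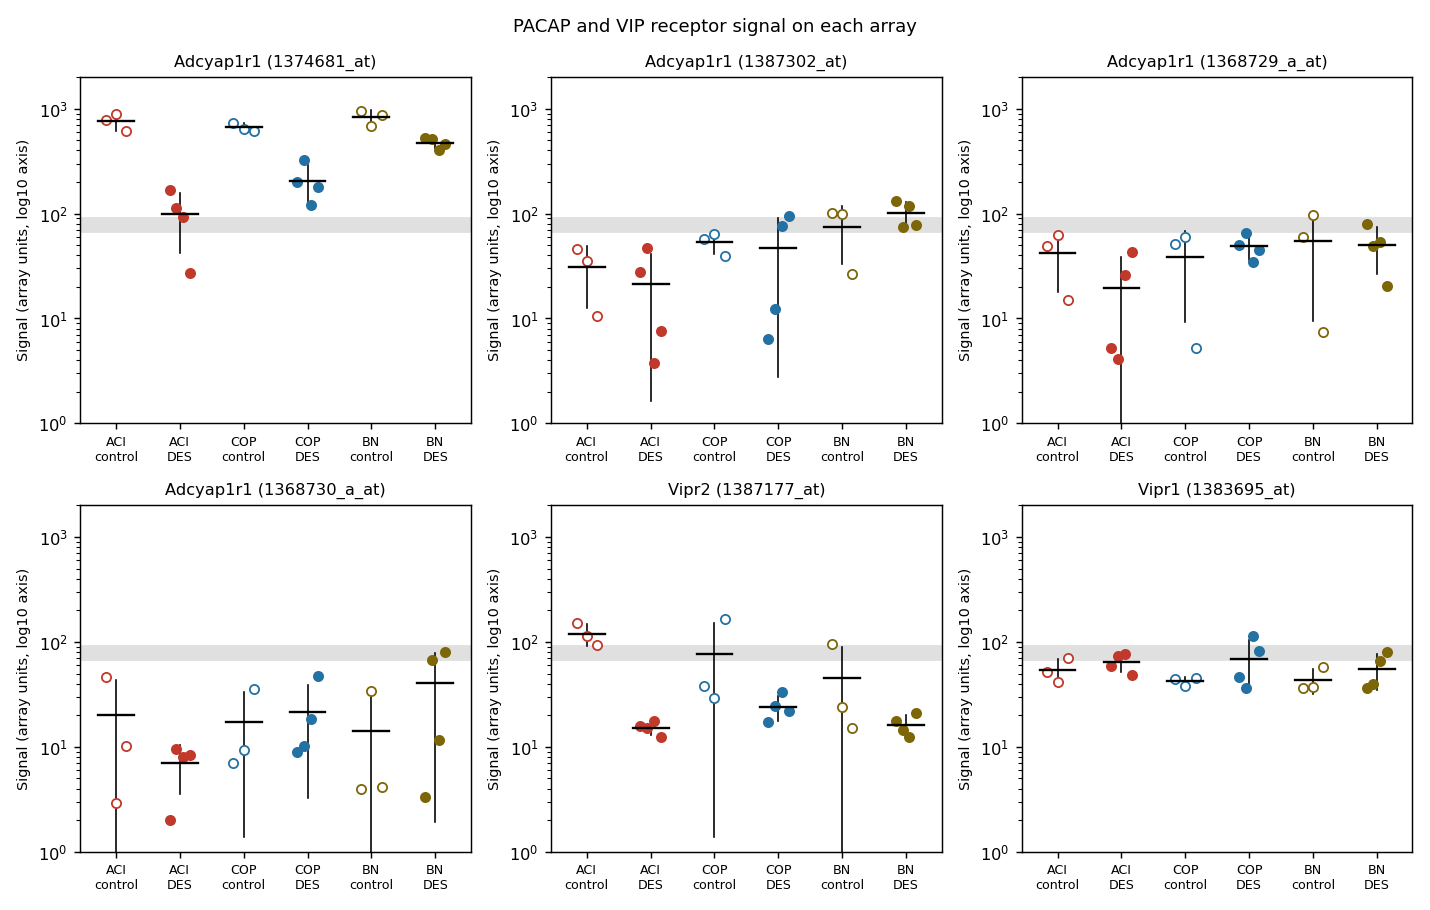
Signal of 4 Adcyap1r1 probe sets, Vipr2 and Vipr1 on each array (log10 axis, array units). Points, lines and gray band are as in the plot of Gal and Vip, and SD lines that would pass below 1 stop at the axis. Of the Adcyap1r1 probe sets, 1374681_at alone lies well above the band in controls, and it reads 27.3 to 168.6 in ACI after DES.

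In all, DES called 4 of the 14 probe sets in ACI (Gal, Vip, Vipr2 and Adcyap1r1 1374681_at), where 49.0% of all probe sets tested were called. It called 3 in COP (background 43.0%) and 2 in BN (background 33.5%). Control and DES arrays did not overlap for 5 probe sets in ACI (background 54.0%), 3 in COP (48.3%) and 4 in BN (36.8%). Gal, Vip and Adcyap1r1 1374681_at were among them in each strain, with Vipr2 and the dim Adcyap1 probe set 1394908_at in ACI and the dim Vipr1 probe set 1387561_at in BN. The share of members called, 28.6% in ACI, 21.4% in COP and 14.3% in BN, was below the background. These shares rest on unlike sets, since 8 of the 14 member probe sets did not pass the filter. Nearly all probe sets of the background passed it. Every member called with DES was among the 6 that passed, so the lower share is not a result about the members.

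**Figure D3:**
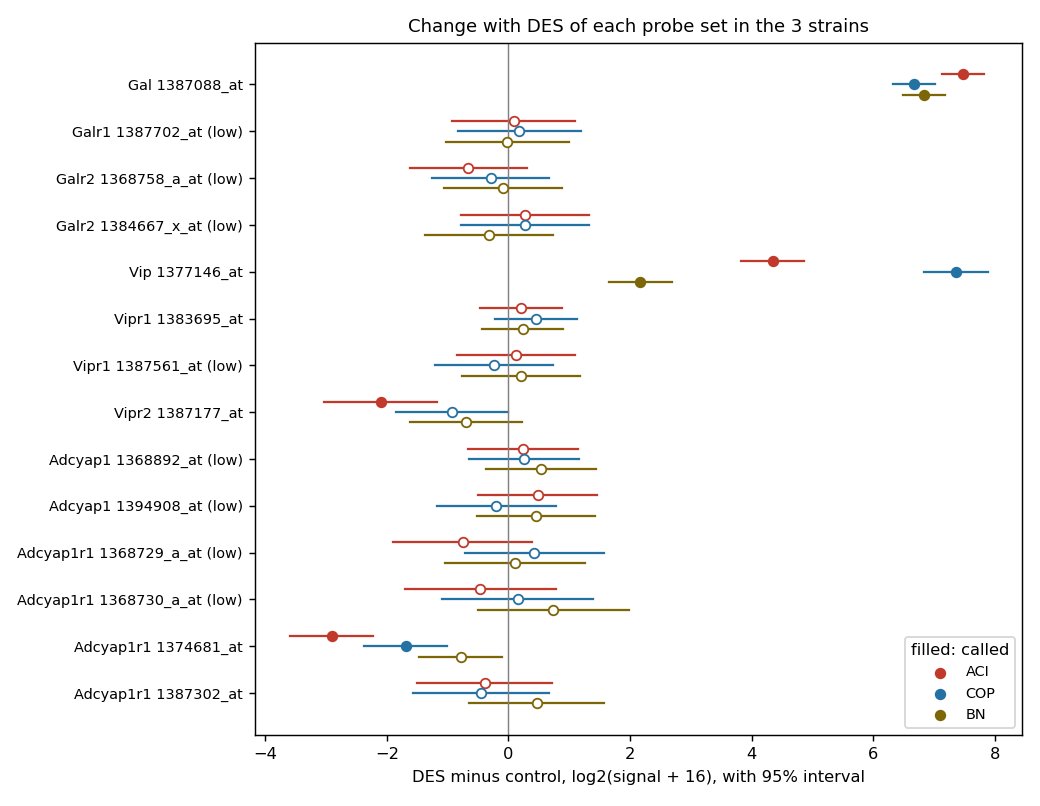
Change with DES (log2 of signal + 16, DES minus control) of the 14 probe sets in ACI, COP and BN, with 95% intervals. Filled points were called at an adjusted p under 0.05, and (low) marks the 8 probe sets that did not pass the filter. Gal lies between 6.67 and 7.47 in all strains, and Vip runs from 2.17 in BN to 7.36 in COP.

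Strains were compared next, first without treatment. In control rats Gal was higher in COP, at a mean signal of 440 ± 118 (SD, n = 3), than in ACI (223 ± 51.2) or BN (170 ± 3.00). The COP difference was called against ACI (-0.92 for ACI minus COP, adjusted p = 0.00604) and against BN (1.26 for COP minus BN, adjusted p = 6.065e-05). ACI and BN, which are neighbors in this order, were not called apart (0.34, 95% interval -0.03 to 0.71). The call against ACI was lost without ACI control array 2 (adjusted p = 0.0646), COP control array 1 (adjusted p = 0.0647) or COP control array 2 (adjusted p = 0.0608). Gal was the sole member called between untreated strains, against a background of 1.20% for ACI and COP and 5.68% for COP and BN, and limma called no member between ACI and BN (background 6.79%), where 1 of 14 had an unadjusted p under 0.05. For ACI and BN, Vipr2 was called without BN control array 1 (1.92, adjusted p = 0.0213).

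After DES, Gal had the same order of means. COP and ACI rats had mean signals of 45498 ± 4936 (SD, n = 4) and 41932 ± 3802, and BN rats a mean of 21457 ± 3633. ACI and COP overlapped and were not called apart (-0.12 for ACI minus COP, 95% interval -0.43 to 0.20), whereas BN lay below both, by 0.98 against ACI (adjusted p = 3.605e-05) and by 1.09 against COP (adjusted p = 1.886e-05). No difference between strains in the rise of Gal was called, at 0.64 for ACI minus BN (95% interval 0.15 to 1.12, adjusted p = 0.0739), 0.80 for ACI minus COP (0.32 to 1.29, adjusted p = 0.146) and -0.17 for COP minus BN (-0.65 to 0.32, adjusted p = 0.781). The first of these Gal differences was called without ACI control array 3 (0.79, adjusted p = 0.0314) or BN DES array 4 (0.73, adjusted p = 0.0444), and the second without COP control array 3 (1.04, adjusted p = 0.0294).

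Vip separated all 3 strains after DES. Its mean was 12151 ± 1514 (SD, n = 4) in COP, 1683 ± 559 in ACI and 486 ± 92.4 in BN. COP exceeded BN by 4.61 on the log2 scale (24.4-fold, adjusted p = 9.687e-12, rank 4 by size of 21866), ACI minus COP was -2.89 (7.43-fold lower in ACI, adjusted p = 3.22e-08, rank 12), and ACI exceeded BN by 1.72 (3.29-fold, adjusted p = 6.125e-06). The order COP, ACI, BN without overlap of DES arrays was shared by 50 of the 21866 probe sets (0.229%), and any order of 3 strains without overlap by 735 (3.36%). In control rats no strain difference of Vip was called, and the values ran from 40.3 to 110.1, although COP and BN controls did not overlap (-0.58 for COP minus BN, 95% interval -1.13 to -0.02, adjusted p = 0.279).

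The difference in response, which compares the DES change of a strain with that of another, was called for Vip in all 3 pairs. The change of COP exceeded that of BN by 5.19 (95% interval 4.45 to 5.92, adjusted p = 2.289e-08), rank 1 of the 21866 probe sets. The change of ACI exceeded that of BN by 2.18 (1.44 to 2.91, adjusted p = 2.456e-04), and ACI minus COP was -3.01 (-3.75 to -2.28, adjusted p = 1.775e-04), rank 3. The exact sizes depend on control signals near the floor, since with each control array raised to its 40th percentile, a setting chosen after seeing the data, the response differences of Vip were 4.84 for COP minus BN, 1.81 for ACI minus BN and 3.02 for COP minus ACI, without a test. These 3 comparisons share arrays and are not independent. The background of calls was 14.1% for ACI minus BN, 0.531% for ACI minus COP and 5.22% for COP minus BN. Members called were 2, 1 and 1 in that order.

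The second member called in ACI minus BN was Adcyap1r1. No difference between control rats was called in 1374681_at (means of 761 ± 144, 666 ± 63.3 and 836 ± 137 in ACI, COP and BN, SD, n = 3), whereas after DES the means were 100 ± 58.3, 206 ± 86.1 and 476 ± 56.5 (n = 4). The fall of Adcyap1r1 in ACI exceeded that in BN (difference -2.12, 95% interval -3.09 to -1.15, adjusted p = 0.00350). COP lay between, with -1.21 for ACI minus COP (adjusted p = 0.333) and -0.90 for COP minus BN (adjusted p = 0.314), neither called. After DES, ACI minus BN was -2.25 (4.77-fold lower in ACI, adjusted p = 6.236e-06) and COP minus BN was -1.22 (2.32-fold lower in COP, adjusted p = 0.00579). ACI against COP was -1.04 and was not called (adjusted p = 0.0535), but it was called in 7 of 21 alternatives, over which the adjusted p ran from 0.0106 to 0.194, among them without ACI DES array 1 (-1.32), without COP DES array 3 (-1.24, adjusted p = 0.0285) and with the array number as a block (adjusted p = 0.0132). The dim probe set 1387302_at of Adcyap1r1 gave the same direction for ACI against BN after DES (-1.76, adjusted p = 0.00898), with ACI arrays between 3.8 and 46.5 and BN arrays between 74.5 and 132.1. In control rats 1387302_at already had a mean of 30.9 in ACI against 75.1 in BN (-0.91, not called), and its difference in response was -0.85 (adjusted p = 0.518). After DES 4 probe sets were called between ACI and BN (background 31.2%), 1 between ACI and COP (4.68%) and 3 between COP and BN (22.2%). For Vipr2 the difference in response of ACI and BN was -1.41 (adjusted p = 0.150), and without BN control array 1 it was -1.97 and was called (adjusted p = 0.0399).

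**Figure D4:**
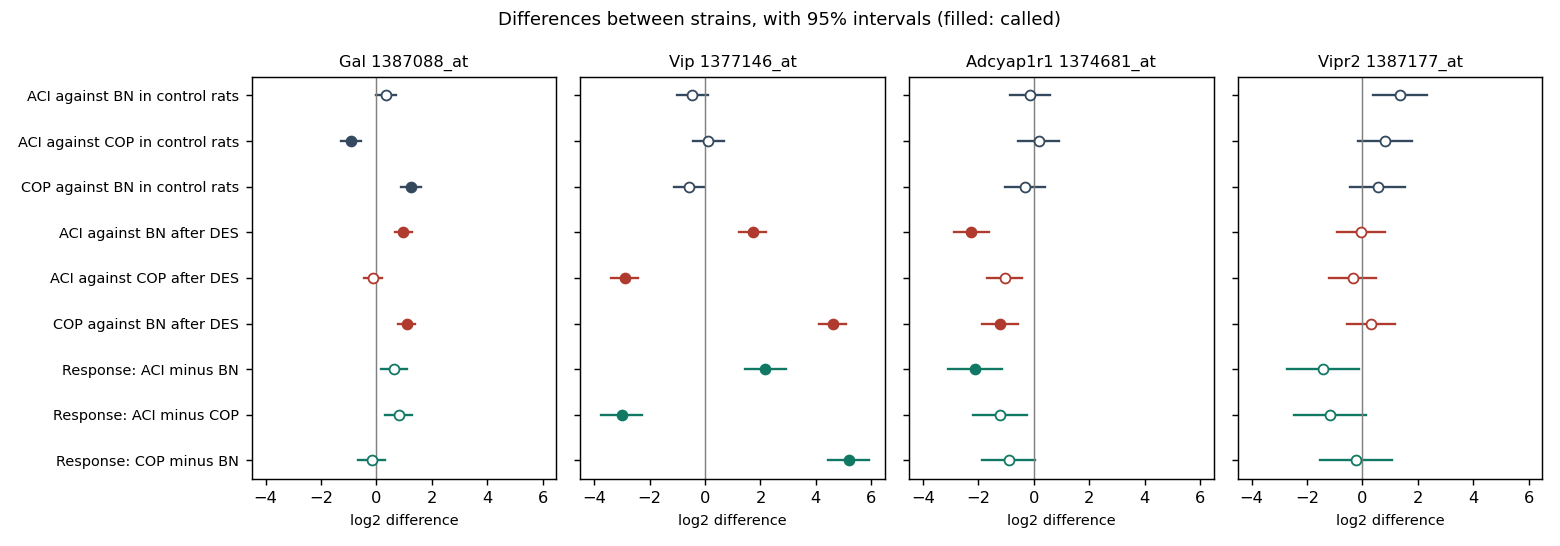
Differences between strains of Gal, Vip, Adcyap1r1 1374681_at and Vipr2 on the log2 scale with 95% intervals, in control rats, after DES, and as differences in DES response. Filled points were called. No Vip difference was called in control rats, and Vip reaches 5.19 for the response of COP minus that of BN, and Adcyap1r1 is lowest for ACI against BN after DES, at -2.25.

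Cell type markers moved with these genes, and their part in the results was not tested. The summed signal of 5 lactotroph markers lay between 38080 and 52880 on ACI control arrays and between 45600 and 57130 on ACI DES arrays. The COP range moved from 40640-43960 to 48350-60920 and the BN range from 35270-39230 to 42660-75090, and no marker of the list was near the floor. Prl, the prolactin gene, carried most of this sum and was among the brightest signals, whose saturation was not assessed. Of the 5 markers, 2 were called lower in every strain, namely the pituitary factor Pou1f1 (-0.74, -0.71 and -0.59 in ACI, COP and BN) and Nfib (-2.41, -1.66 and -0.96), whereas 0 were called higher in ACI (2 at an unadjusted p under 0.05), 1 in COP (Prl) and 2 in BN (Prl and Angpt1). The sum of 9 leukocyte and macrophage markers rose from 2047-2390 to 9348-10550 in ACI rats, from 1605-2350 to 8783-11910 in COP rats, and from 3240-3925 to 5387-9035 in BN rats, with Cd3e, Cd3g and Cd79b near the floor. Of the 7 of these markers that were tested, 6 were called higher in ACI, 6 in COP and 4 in BN. Over all genes, with 1 probe set each, 23.2% were called higher in ACI, 21.6% in COP and 16.9% in BN. The sum of 9 markers of neural lobe and nerve was lower after DES, at 2080-2737 against 5364-5719 for ACI, 2501-3295 against 5328-6771 for COP and 2890-3295 against 4630-4877 for BN. Avp and Oxt, hormone genes whose RNA marks neural lobe axons, were near the floor, as were Mobp, Sox10 and Rax. The sum therefore reflects the remaining markers of the list. Of the 6 tested, 4 were called lower in ACI, 4 in COP and 3 in BN, against 32.4%, 28.1% and 22.6% of all genes.

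Markers of several pituitary cell types were lower beside Adcyap1r1, although not every list was lower in every strain. Over all genes, 32.4% were called lower in ACI, 28.1% in COP and 22.6% in BN. The sum of 7 folliculostellate markers was 1366-2114 on ACI DES arrays against 5954-6297 on controls, 3241-3661 against 6776-7350 for COP, and 5115-6027 against 8552-9621 for BN. Of these 7 markers 6 were called lower in ACI and 5 in each of the other strains, and no marker of the list was near the floor. Of 6 gonadotroph markers 5 were called lower in ACI, 5 in COP and 4 in BN, with 1 called higher for BN rats. Their summed signal was 28090-31000 with DES against 49320-71130 for ACI and 33320-42680 against 58290-63170 for COP, and for BN the ranges overlapped (35150-62550 against 47900-54600). Of 6 somatotroph markers 4 were called lower in each strain, with 1 called higher for COP and 1 for BN rats. Their mean sum with DES was 37090 against 48370 for ACI, 45210 against 42940 for COP and 54000 against 39620 for BN. Of 4 corticotroph and melanotroph markers 3 were lower for ACI and COP rats and 2 for BN rats, with 1 higher in each strain. Their mean sum fell for ACI and COP rats but was 3319 against 2896 for BN rats. Of 4 thyrotroph markers 2 were lower for ACI and COP rats, whereas 1 was higher for BN rats. Of 5 endothelial markers 4 were lower for ACI and 1 for COP rats, and 1 was higher for BN rats.

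The genes whose signal ran most like each member over the 21 arrays were ranked by Pearson's r on the log2 scale, as a description, since the arrays fall into control and DES clusters. For Gal they were Klk1b3, a kallikrein (r = 0.996), Cgref1, a cell growth regulator (0.995), Tafa2 (0.992), Kdelr3, an endoplasmic reticulum retention receptor (0.990), and Pvalb, the calcium buffer parvalbumin (0.989). For Vip they were Mzb1, a chaperone of antibody-secreting cells (0.950), Fabp5, a fatty acid binding protein (0.950), Gabra2, a GABA receptor subunit (0.947), Ndel1 (0.943) and Rab24 (0.942). Mzb1 had mean signals of 2113 in ACI, 3525 in COP and 646.5 in BN after DES, against 44.3 to 58.4 in controls. For Adcyap1r1 1374681_at they were Brd9 (0.953), Tp53bp2 (0.951), Elmod1 (0.950), Fam229b (0.949) and Dcx, the neuronal protein doublecortin (0.948). Likeness was lower for the dim Vipr2, with Tmem170a first at 0.850.

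Relatives of the peptides and receptors were mostly dim. Of 5 further peptides of the galanin and secretin families on the array, Sct, which encodes secretin, was the one that passed the filter. Mean Sct signal was 67.6 in ACI controls and 249.6 with DES, 80.5 and 384.1 for COP, and 89.7 and 110.8 for BN. Sct rose by 1.66 in ACI (adjusted p = 7.876e-06) and 2.07 in COP (adjusted p = 5.723e-07), whereas the BN change was 0.23 (adjusted p = 0.501). The response differed for ACI minus BN (1.43, adjusted p = 0.00802) and for COP minus BN (1.83, adjusted p = 0.00266). Of 7 related receptors, Ghrhr, the receptor for growth hormone-releasing hormone, was the one tested, and its fall was called in each strain (-1.31, -1.89 and -1.23 for ACI, COP and BN).

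Downstream of the receptors, changes ran both ways. Over all 11753 genes, with 1 probe set each, DES called 23.2% higher and 32.4% lower in ACI, against 21.6% and 28.1% for COP rats and 16.9% and 22.6% for BN rats. Of 19 tested genes of stimulatory G proteins, adenylyl cyclases and protein kinase A, 2 rose and 9 fell in ACI, against 4 and 7 for COP rats and 1 and 8 for BN rats, with medians of -0.19, -0.23 and -0.16. Adcy5, an adenylyl cyclase, changed by -2.81, -1.95 and -1.59 in ACI, COP and BN. Rapgef4, a cyclic AMP-gated exchange factor, changed by -1.87, -1.92 and -1.40, and Prkar2b, a regulatory subunit of protein kinase A, by -1.70, -1.61 and -1.35. Gnas, the stimulatory G protein itself, rose by 0.30, 0.48 and 0.39. Adcy8, another cyclase, rose by 1.79 in ACI and 2.39 in COP, and its BN change of 0.73 was not called, and Adcy6 rose by 0.38 in COP. Of 8 phosphodiesterases, which break down cyclic AMP, 3 rose and 4 fell in ACI, against 3 and 3 for COP rats and 2 and 2 for BN rats. Pde4d rose by 1.72, 1.66 and 0.76, and its response differed for ACI minus BN (0.96, adjusted p = 0.00325).

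The CREB family and its coactivators split in the same way, with 3 of 12 higher and 5 lower in ACI, against 4 and 3 for COP rats and 4 and 4 for BN rats. Creb3l1, a membrane-anchored transcription factor of the secretory pathway, rose most of the list, by 4.58, 4.25 and 2.62 in ACI, COP and BN. Creb1, the founding member, fell (-0.56, -0.62 and -0.40). Crem, whose products include cyclic AMP-inducible repressors, fell in ACI (-0.69) but rose by 0.80 in COP and 1.13 in BN, and the response of ACI differed from that of BN (-1.82, adjusted p = 5.532e-04) and of COP (-1.49, adjusted p = 0.0363). Mean Crem signal in controls was already higher in ACI, at 7123, than in COP (2787) or BN (2072), and after DES it was 4414, 4823 and 4659.

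Genes known to respond to cyclic AMP and CREB rose more often than they fell, with 6 of 14 higher and 3 lower in ACI, against 6 and 0 for COP rats and 8 and 0 for BN rats. At an unadjusted p under 0.05 the number lower stayed at 0 for COP and BN. ACI, COP and BN had median changes of 0.32, 0.92 and 1.04, against -0.13 for all genes in ACI. Dusp1, a phosphatase, rose by 2.48, 2.60 and 2.41. Sik1, a salt-inducible kinase, rose by 1.45, 1.79 and 1.73. Nr4a3, an orphan nuclear receptor, and Per1, a clock gene, fell in ACI (-1.72 and -0.99). For both, ACI minus BN was called (-2.07 for Nr4a3 and -1.62 for Per1). In control rats 7 of the 14 were already called higher in ACI than in BN and 0 lower (0 also at an unadjusted p under 0.05). Over all genes, 3.86% were called higher and 3.65% lower in that comparison. Part of the list consists of immediate early genes.

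**Figure D5:**
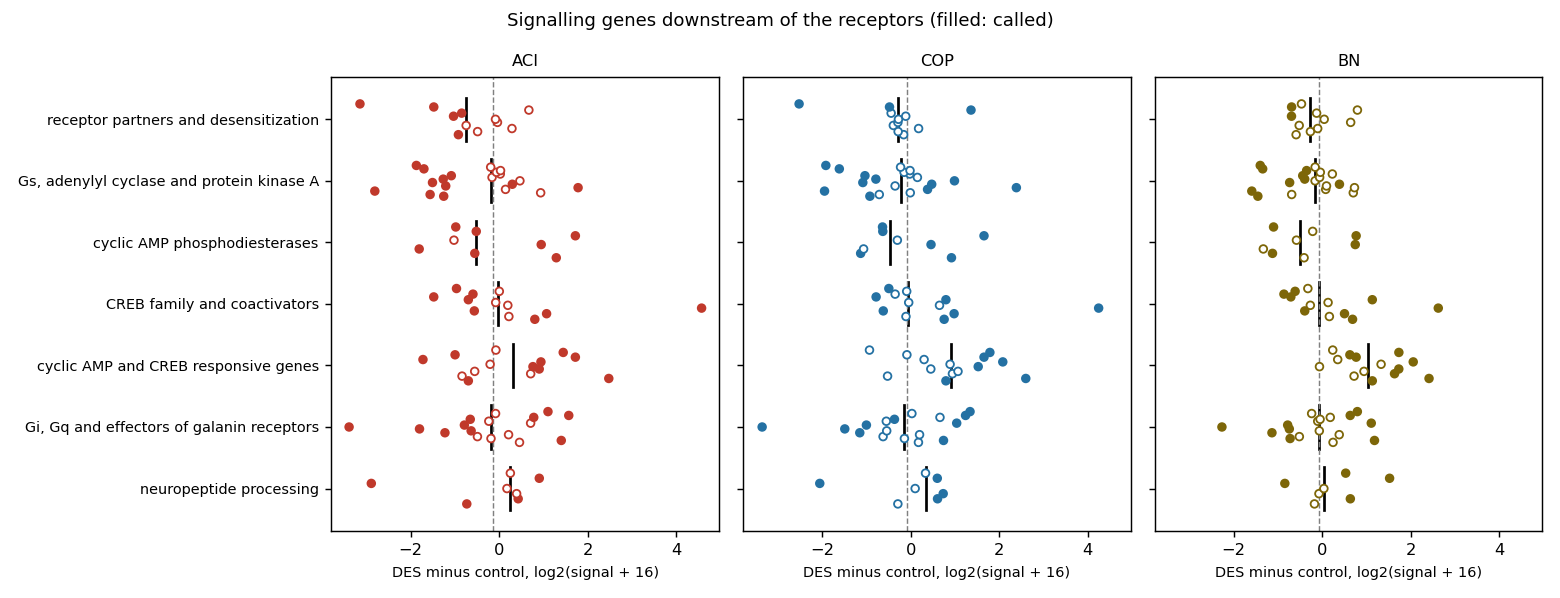
Change with DES (log2 of signal + 16) of the tested genes of 7 signaling and processing lists in ACI, COP and BN. Each point is 1 gene, filled where called, black bars are list medians, and the dashed line is the median of all genes. Lists spread to both sides, and the list of cyclic AMP and CREB responsive genes has its median at 0.32, 0.92 and 1.04.

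Receptor partners and desensitizing proteins fell more than they rose in ACI, with 0 of 11 higher (0 also at an unadjusted p under 0.05) and 5 lower, against 1 and 2 in COP and 0 and 2 in BN. Rgs4, a regulator that ends G protein signals, fell in ACI (-3.14) and in COP (-2.52), and its BN change was -0.47 (adjusted p = 0.166). The Rgs4 response differed for ACI minus BN (-2.67, adjusted p = 2.953e-05) and COP minus BN (-2.05, adjusted p = 0.00122). Of 17 genes of inhibitory and Gq signaling, through which galanin receptors act, 4 rose and 6 fell in ACI, against 4 and 5 for COP rats and 4 and 5 for BN rats. Kcnj6, a G protein-gated potassium channel subunit, fell (-3.39, -3.36 and -2.27), whereas Prkcb, a protein kinase C, rose by 1.58, 1.24 and 0.63. Among 7 enzymes and chaperones that turn precursors into peptides, 2 rose and 2 fell in ACI, against 3 and 1 for COP rats and 3 and 1 for BN rats. Pcsk2, a prohormone convertase, rose by 0.91, 0.60 and 1.52, and Cpe, carboxypeptidase E, by 0.43, 0.61 and 0.63. Pcsk1n, an inhibitor of the convertase PC1, fell (-2.89, -2.05 and -0.85), and the fall in ACI exceeded that in BN (-2.04, adjusted p = 1.813e-05). Pam, which amidates the carboxyl end of galanin, VIP and PACAP, was not called in any strain (0.18, 0.10 and 0.04).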

How the data were processed

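Anterior pituitary RNA of male rats was hybridized to 21 Affymetrix Rat Genome 230 2.0 arrays, each taken as 1 rat. The authors deposited intensity values per probe set on a linear scale, with each array already scaled to a common trimmed mean, and the summarization software is not given in the sources used here. No detection calls were used, and the number of arrays limits the precision. Of 31099 probe sets, 57 controls were left out. Platform annotation gave 1 symbol to 20826 probe sets, several to 436 and none to 9780. Intensities were taken as log2 after adding 16 and fitted with limma 3.58.1 in R 4.3.3, with 6 group means and a variance trend (21.6 degrees of freedom). A probe set was tested when above the 40th percentile of its array on at least 3 arrays, or when it belonged to a member gene (8 of the 14 were kept in this way), which gave 21866. Within each of 12 comparisons, two-sided p-values were corrected over all probe sets with the Benjamini-Hochberg procedure. Single probe sets were also tested by exact permutation over 35 splits of the arrays. Members were named whether called or not, with the 5 most alike genes by Pearson's r. From 19 lists of 180 genes, 168 were on the array and 144 were tested. The members and lists were chosen with earlier results of these data known. The tests were run on simulated data first. Alternatives covered the pseudocount, filter, normalization, variance trend, samples fitted, array numbers and leaving out each array.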

Additional observations from a re-analysis of the deposited data

Results flagged for a closer look

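The DES response of Vip differed between strains by a test of the difference itself in every pair, at 2.18 for ACI minus BN, -3.01 for ACI minus COP and 5.19 for COP minus BN on the log2 scale. All 4 DES arrays of each strain lay above the 3 control arrays in each case. The response of Adcyap1r1 (1374681_at) differed for ACI minus BN, at -2.12.

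For Galr1 in ACI rats with DES, 1 array read 21.6 while the other 3 read between 2.1 and 2.3, a gap that was 0.985 of the range of the group. All of these signals lie under the 40th percentile of the arrays. Of 42 groups of 4 examined for such a value, 1 stood out, and chance gives about 1 in 20, or 2.1.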

How the results depend on the processing

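No member reversed direction under any alternative while called. The DES changes of Gal and Vip in each strain, their differences from BN after DES and the 3 response differences of Vip stayed called under every alternative run. The number of members called was 1 for ACI against COP after DES but 2 with the filter at the 60th percentile, with the set of array numbers as a block and without BN DES arrays 3 and 4 together (chosen after seeing the data), and 3 with arrays numbered 1 and 2 alone. For the response of ACI minus COP it was 1, but 2 with quantile normalization and with numbers 1 and 2 alone. Control groups have no number 4, so with numbers 3 and 4 alone each holds 1 array, assumed to vary like the other groups, and control strains are then compared 1 array against 1. For ACI against COP in control rats the number called was 1, but 0 when only the groups compared were fitted and with numbers 3 and 4 alone, and for ACI against BN in control rats it was 0, but 1 with numbers 3 and 4 alone. Leaving out 1 array gave 1 to 2 for ACI against COP after DES and for the response of ACI minus COP. In control rats it gave 0 to 1 for ACI against COP and for ACI against BN. The count ran from 3 to 4 for DES in COP and for COP against BN after DES. For the response of ACI minus BN it ran from 2 to 3. Among single probe sets, 32 values became called and 6 lost their call. Gal in the response of ACI minus BN was called with a pseudocount of 64 (0.70, adjusted p = 0.0328), quantile normalization (0.77) and median centring (0.77). Adcyap1r1 1374681_at in BN with DES was called in 4 of 20 alternatives, among them a pseudocount of 64 (-0.73, adjusted p = 0.0219). Over these 20 its change ran from -0.98 to -0.62.

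The array numbers were not taken to pair the samples, since not every pair with the same number had deviations that correlated above 0.1 (31 of 48 did, with a median of 0.113 and a lowest value of -0.0466, against a median of -0.0862 for different numbers). This rule does not show that arrays of the same number are unrelated, since same-number pairs were more alike than others. Control and DES arrays of the same strain and number correlated at 0.0801 or more. Results with the number as a block are therefore given too. For BN control and BN DES all 3 pairs were above 0.1, and with a replicate block Adcyap1r1 1374681_at in BN was still not called (-0.63, adjusted p = 0.0821). With the block, ACI against COP after DES had 2 members called, the added one being Adcyap1r1 1374681_at, and the number of members called changed in no other comparison. Over all probe sets the block moved the calls for the response of ACI minus COP from 116 to 252 and for COP minus BN from 1142 to 1773, and every other count by less than 1.5 times. Background counts changed with the arrays fitted, with 51 (numbers 3 and 4) to 1428 (numbers 1 and 2) calls between ACI and COP controls against 263, 553 to 3136 between ACI and BN controls against 1484, 361 to 2084 between COP and BN controls against 1243, and 21 to 449 for the response of ACI minus COP against 116. With numbers 3 and 4 alone there were 7032 calls for DES in ACI against 10722, 5768 in COP against 9413, 458 between ACI and COP after DES against 1024, and 456 for the response of COP minus BN against 1142, and fitting only the groups compared gave 2915 calls between COP and BN after DES against 4859. The causes were not tested, beyond fewer arrays being fitted. Low signal limits what can be said of Galr1, Galr2, Adcyap1, Vipr1, Vipr2 and 3 of the 4 Adcyap1r1 probe sets.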
